A study of Mus musculus with 12 samples.

Results

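The genes described here carry and read out transforming growth factor beta (TGF-beta) and YAP signalling. They are 41 genes chosen by symbol from a raw count table of 22880 features, and all 41 matched a row. Of these, 22 are components of the pathways (6 ligands or ligand-processing genes, 6 receptors, 4 SMAD, corepressor or ubiquitin ligase genes and 6 YAP, TAZ and TEAD genes), and 19 are target genes. Edn1 and Ccn2 are listed as targets of both pathways and were counted as YAP targets only. The filter on low counts left 39 members, 21 components and 18 targets, for testing among 11291 genes.

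TGF-beta ligands are secreted in a latent form, bind paired receptor kinases and signal through SMAD proteins, which switch on genes that include the pathway's own inhibitors. YAP and its relative TAZ (encoded by Wwtr1) are coactivators that the Hippo kinases hold in the cytoplasm; in the nucleus they bind TEAD factors and drive genes such as Ccn1, Ccn2 and Ankrd1. Both pathways are known for their part in the spread of mammary tumour cells, where TGF-beta can restrain early growth and favour invasion later.

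RNA was sequenced from 4T1, a mammary tumour line of the mouse that forms lung metastases, in 4 groups of 3 libraries. The mock cells were transfected with the empty plasmid pcDNA3.1, and the MYBup cells with pcDNA3-mMyb, which carries mouse Myb (it encodes the transcription factor c-Myb). No plasmid was given to the wt cells, which were not passaged, and the lung3 cells were untransfected but had been passaged 3 times through mouse lung. Per the labels, lung metastatic activity is low in MYBup, normal in mock and wt and high in lung3 cells. Neither the pool or clone origin of the transfected lines is stated in the labels, nor whether the 3 libraries of a group are separate cultures. The p-values therefore set a difference only against the scatter of these particular libraries, which may be technical. With 1 line per condition, a difference between lines and an effect of the plasmid or passage cannot be told apart.

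Total counts per library ran from 8912989 to 24745660, and levels are given as CPM, counts scaled to library size, with TMM scaling. Myb stood between 39.3 and 42.9 CPM in MYBup libraries and at most 6.80 CPM in any other library. The mammary markers Epcam, Krt8, Krt18, Krt14 and Cdh1 summed to between 1901 and 2679.8 CPM, while Krt5 was at or near 0. Of markers of host cells, Adgre1, Cd3e, Lum, Thy1, Kdr, Sftpc, Sftpb and Sftpa1 had 0 counts in every library. The 7 fibroblast markers summed to 15.9 to 21.6 CPM in lung3, 21.8 to 30.3 in wt, 36.9 to 49.0 in mock and 38.7 to 48.6 in MYBup libraries, nearly all of it from Pdgfra. The 9 leukocyte markers summed to 5.24 to 14.3 CPM in lung3 and 2.41 to 4.89 in wt libraries, most of it from Cd74. Whether host cells were present at all, and any part of theirs in the results, was not tested. In bulk RNA fewer cells of a type and less RNA per cell cannot be told apart. The lists of 6 endothelial and 6 lung epithelial markers stayed at or below 1.80 and 1.05 CPM in all libraries.

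Mock replicate 2 held the lowest level of its group for 23 of the 39 tested members, and MYBup replicate 1 for 26 of 39, against 38.1% and 44.1% of all tested genes. Counts of called members without these 2 libraries, a setting chosen after the data were seen, are given with each comparison that uses them. Lung3 and wt libraries were uneven too. Lung3 replicate 2, the library with the lowest total count, held the highest level of its group for 21 of 39 members. Wt replicate 3 did so for 19 of 39, against 34.1% and 37.2% of all tested genes.

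YAP and TAZ reach DNA through TEAD factors, whose core motif is GGAATG, so the sequences just before the start sites of their targets were read for it. The motif was searched on both strands (as GGAATG or CATTCC) in the 250 bases before each start in RefSeq's promoter table for GRCm38.p6, which held 30 of the 41 members. It was found in 12.64% of all 32851 promoters of that table, in 7 of the 9 YAP targets with an entry (Ajuba, Amotl2, Ankrd1, Axl, Ccn1, Crim1 and Edn1), in 0 of 4 TGF-beta targets and in 3 of 17 components (Tead3, Wwtr1 and Yap1). A gene with several promoters counted as a match if any of them matched. Counted by promoter, as for the share of all, 12 of 39 promoters of members (30.77%) held it. A match of letters is a description and not a binding site. Windows of 4 YAP targets are shown because these genes moved in different ways, Ccn1 and Edn1 upward in lung3, Axl downward and Ajuba upward in MYBup cells. Each is printed 5′ to 3′ on the gene's strand, with the motif in capitals.
Ccn1, minus strand, chr3:145649986-145650235: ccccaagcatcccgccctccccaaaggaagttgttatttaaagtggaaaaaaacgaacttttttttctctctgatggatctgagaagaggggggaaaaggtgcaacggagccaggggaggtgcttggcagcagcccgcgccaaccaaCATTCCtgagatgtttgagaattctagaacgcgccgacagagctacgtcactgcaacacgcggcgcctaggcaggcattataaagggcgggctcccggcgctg
Edn1, plus strand, chr13:42301226-42301475: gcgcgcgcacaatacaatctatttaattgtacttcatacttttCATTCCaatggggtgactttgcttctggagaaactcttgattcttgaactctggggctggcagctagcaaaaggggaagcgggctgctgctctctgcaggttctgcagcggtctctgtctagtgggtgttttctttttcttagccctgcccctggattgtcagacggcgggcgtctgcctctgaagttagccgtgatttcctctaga
Axl, minus strand, chr7:25788734-25788983: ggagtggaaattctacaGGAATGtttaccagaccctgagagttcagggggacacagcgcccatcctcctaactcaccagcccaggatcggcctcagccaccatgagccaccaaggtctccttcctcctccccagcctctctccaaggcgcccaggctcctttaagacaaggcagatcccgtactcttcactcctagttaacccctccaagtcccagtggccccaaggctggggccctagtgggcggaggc
Ajuba, minus strand, chr14:54577662-54577911: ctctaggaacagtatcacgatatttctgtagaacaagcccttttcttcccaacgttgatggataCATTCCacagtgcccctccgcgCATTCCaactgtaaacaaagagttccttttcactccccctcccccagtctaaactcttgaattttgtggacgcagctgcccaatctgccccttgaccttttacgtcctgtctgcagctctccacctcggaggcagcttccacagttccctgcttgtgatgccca
The motif began 103 bases before the start in Ccn1, 207 in Edn1 and 233 in Axl, and it occurred 2 times in Ajuba, at 186 and 164 bases. It was also present in Amotl2 and Ankrd1, which did not pass the test in either main comparison. F3 had no such match but held 2 matches to TGANTCA, the AP-1 motif, which occurred in 6.75% of all promoters. The SMAD palindrome GTCTAGAC was found in 0 of 30 members and in 0.17% of all promoters, and the shorter CAGAC (or GTCTG) in 13 of 30 members and 42.19% of all promoters. Counted by promoter, CAGAC was in 15 of 39 promoters of members (38.46%).

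Lung3 cells were set against wt cells to ask what passage through the lung goes with. In the fit without a replicate block, 5 targets of YAP or TGF-beta rose and 1 component fell. Edn1 (the vasoconstrictor peptide endothelin 1), F3 (tissue factor, which starts blood clotting), Ccn1 and Ccn2 (matricellular proteins) and Ltbp2 (a matrix protein of the latent TGF-beta binding family) were higher. Bmp1, a protease that cleaves procollagens and releases latent growth factors, was lower. By edgeR's quasi-likelihood test, 5 of 18 tested targets rose and 0 fell, and of 21 components 0 rose and 1 fell; among all genes tested, 5.36% were called: 2.91% rose and 2.44% fell. At an unadjusted p under 0.05, 1 target was lower and 3 components were higher. DESeq2 and limma voom each called 0 targets lower and 1 component higher. The median log2 fold change was 0.21 for targets, -0.029 for components and 0.0010 for all genes. Leaving out single libraries moved the median of targets between 0.13 (without lung3 replicate 3) and 0.31 (without wt replicate 3), and that of components between -0.087 and 0.029. Without lung3 replicate 1, 2 members fell instead of 1. With replicate number as a block, 7 of 17 targets rose and 1 fell, and 4 of 21 components rose and 7 fell, against 8.67% and 9.24% of all genes. The small number of components called thus holds for the fit without the block only. No test compared the 2 classes.

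Edn1 (ENSMUSG00000021367, chromosome 13, 42301476 to 42307990, GRCm38) stood at 7.13, 8.54 and 6.65 CPM in lung3 replicates 1 to 3 and at 1.36, 1.32 and 2.97 CPM in wt, and the log2 fold change was 1.98 (SE 0.27, adjusted p = 0.00123). Every lung3 library lay above every wt library, and wt replicate 3 was the highest wt library. The level was lower still in the plasmid lines, 0.617, 0.570 and 0.588 CPM in mock and 0.652, 0.665 and 0.373 CPM in MYBup libraries.
F3 (ENSMUSG00000028128, chromosome 3, 121723537 to 121735048) had 28.6, 30.8 and 23.8 CPM in lung3 and 13.2, 13.3 and 14.4 CPM in wt libraries, and its log2 fold change was 1.02 (SE 0.13, adjusted p = 0.00066). Its 3 wt libraries lay close together, and all lung3 libraries were above them. Mock and MYBup libraries held 3.61, 4.21 and 5.30 and 5.13, 4.95 and 5.39 CPM, below all wt libraries.

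Ccn1, formerly Cyr61 (ENSMUSG00000028195, chromosome 3, 145646976 to 145649981), reached 589, 616 and 493 CPM in lung3 against 302, 318 and 316 CPM in wt libraries (log2 fold change 0.86, SE 0.08, adjusted p = 7.96e-05). The mock libraries had 144, 151 and 151 CPM and the MYBup libraries 199, 197 and 197 CPM. The 4 groups did not overlap in this gene, in the order mock, MYBup, wt and lung3. Of all tested genes, 40.6% did not overlap between MYBup and mock and 46.9% between mock and wt. For MYBup and wt the share was 55.6%, and for lung3 and wt 27.4%. The share of genes in which all 4 groups are separate was not computed.
Ccn2, formerly Ctgf (ENSMUSG00000019997, chromosome 10, 24595442 to 24598683), had 246, 279 and 303 CPM in lung3 and 123, 128 and 202 CPM in wt libraries (log2 fold change 0.87, SE 0.15, adjusted p = 0.00621). Here wt replicate 3 stood well above the other wt libraries but below all lung3 libraries. Mock and MYBup libraries, at 121, 129 and 127 and 109, 127 and 125 CPM, overlapped each other and lay near wt replicates 1 and 2. Exons of Ccn2 overlap those of the noncoding model Gm15270 on the opposite strand by 665 bases, and exons of Edn1 those of Gm47118 by 35, so reads of either strand may be mixed in these counts. The same holds for Crim1 (123 exon bases shared with Fez2), Tgfb2 (124 with Gm29491) and Tgfb3 (163 with Gm37804 and 257 with Gm48008). It also holds for Bmpr1a (290 with Gm17110), Yap1 (116 with Gm20416) and Tead2 (13 with Cd37). Lats2 differs, since it shares 2955 exon bases with Gm49361 on its own strand, where strand cannot separate the reads.

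Ltbp2 (ENSMUSG00000002020, chromosome 12, 84783212 to 84876532) rose from 62.5, 62.2 and 76.4 CPM in wt to 99.0, 105 and 108 CPM in lung3 libraries (log2 fold change 0.63, SE 0.10, adjusted p = 0.00344). Its order among the groups differed from that of the YAP targets, since mock (169, 141 and 153 CPM) and MYBup (108, 126 and 128 CPM) were higher than wt. The antisense gene D030025P21Rik shares 764 exon bases with Ltbp2 and had 745 counts over all libraries, against 21630 for Ltbp2.
Bmp1 (ENSMUSG00000022098, chromosome 14, 70474558 to 70520234) fell from 267, 256 and 257 CPM in wt to 187, 169.6 and 211 CPM in lung3 libraries (log2 fold change -0.46, SE 0.082, adjusted p = 0.00676), and the groups did not overlap. It was the only component of 21 past the threshold in this fit. The calls of all 6 genes held in each of 13 alternative settings, which left out single libraries or changed the scaling, filter, test or design, with adjusted p of at most 0.0414.

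**Figure D1:**
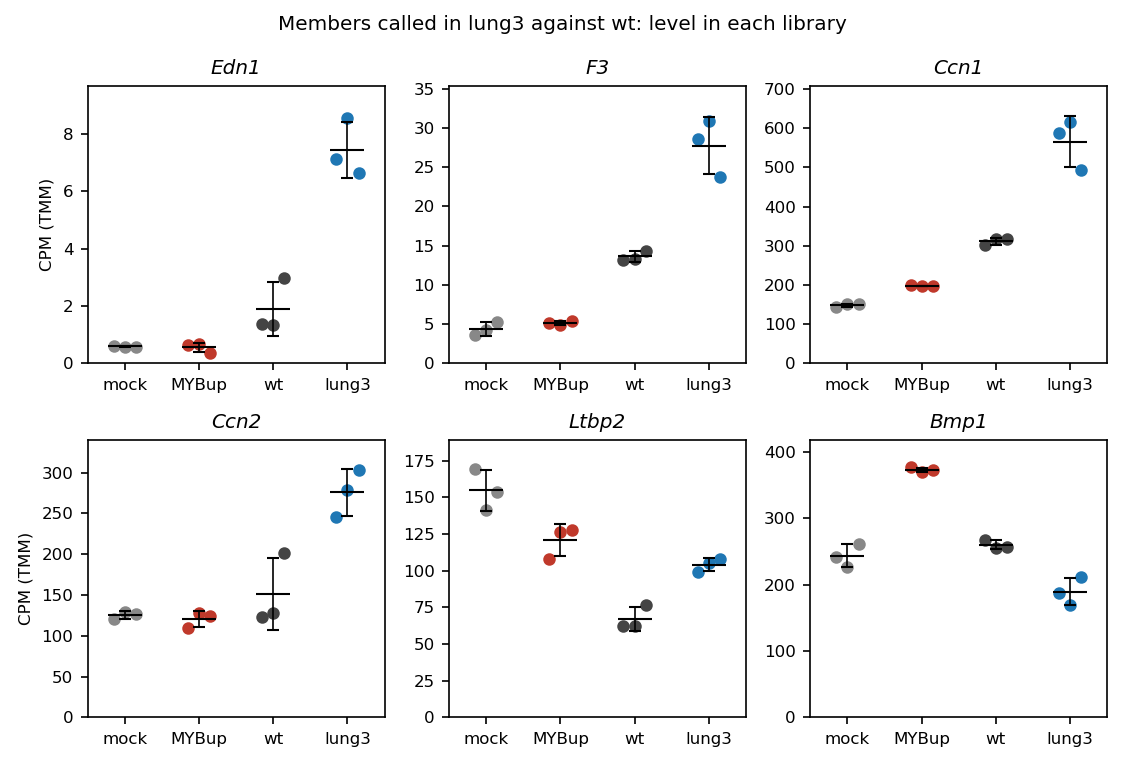
Level of the 6 members called in lung3 against wt, in CPM with TMM scaling on linear axes that start at 0; points are the 3 libraries of each group in the order of their replicate numbers, and lines give the mean and SD. Edn1, F3, Ccn1 and Ccn2 were highest in lung3, Ltbp2 was highest in mock, and Bmp1 was lowest in lung3.

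The other 13 tested targets did not pass in the fit without the block. Ankrd1, a nuclear YAP target, had 215, 224 and 195 CPM in lung3 and 187, 188 and 238 CPM in wt libraries, which overlap. Amotl2, an angiomotin family gene that restrains YAP, had 169.7, 139 and 154 and 163, 141 and 161 CPM, and Smad7, the inhibitory SMAD induced by TGF-beta, 37.1, 44.6 and 43.3 and 40.4, 45.8 and 40.6 CPM. The well-known YAP targets therefore split, with Ccn1 and Ccn2 higher and Ankrd1 and Amotl2 not past the threshold. Tgfbi, a TGF-beta-induced matrix gene, was too low to compare firmly, at 0.509, 0.231 and 1.18 CPM in lung3 and 0.454, 0.620 and 0.480 CPM in wt libraries (0.41, adjusted p = 0.631).

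Among components, Yap1 stood at 228, 240.2 and 239.5 CPM in lung3 and 232, 232 and 241 CPM in wt libraries, and the groups overlapped. Tgfb2, the ligand TGF-beta 2, had 8.08, 8.20 and 13.5 CPM against 4.14, 3.97 and 7.43 CPM and missed the threshold (0.96, adjusted p = 0.0603) although the groups did not overlap; groups did not overlap in 27.4% of all tested genes. Tgfbr2, the ligand-binding TGF-beta receptor, had a log2 fold change of 0.21 (adjusted p = 0.128), and the 6 receptors ranged from -0.082 to 0.33. The ubiquitin ligase gene Smurf2, whose product degrades SMADs and receptors, had 0.37 (adjusted p = 0.104).

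Libraries of the same replicate number deviated together in lung3 and wt cells. In a fit of these 6 libraries that blocks on replicate number, 11 members rose and 8 fell, against 8.67% and 9.24% of all genes tested. The block left the 6 genes above called in the same directions. It added higher calls for Tgfb2 (0.95, adjusted p = 0.000198), Inhba, which encodes the activin A subunit (0.51, 0.00269), Smurf2 (0.37, 0.000945), Ajuba, Skil and Tgfbr2. It added lower calls for Tead3 (-0.44, 0.0411), Tgfb3, the corepressor gene Ski, Tead2, Wwtr1 (-0.27, 0.00922), Lats2 and Smad3. With the block, 2 of the 4 TEAD genes and the TAZ gene were thus called lower in the same cells in which Ccn1, Ccn2, F3 and Edn1 were higher. Blocked changes of the 13 added genes were all smaller than 1 on the log2 scale.

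MYBup cells were set against mock cells to ask what a raised level of Myb goes with. The ligand gene Tgfb2, the inhibitory SMAD gene Smad6, Bmp1 and the LIM protein gene Ajuba rose, whereas the receptor gene Tgfbr2, the signal transducer Smad3, the receptor tyrosine kinase gene Axl and the feedback inhibitor Pmepa1 fell. In all, 7 of 39 tested members rose and 10 fell; among all genes tested 26.9% were called, 14.3% higher and 12.6% lower. Of 18 tested targets 5 rose and 5 fell, and of 21 components 2 rose and 5 fell. YAP targets rose in 4 and fell in 1 of 11, and TGF-beta targets rose in 1 and fell in 4 of 7. Median log2 fold changes were 0.18 for the YAP targets, -0.36 for the TGF-beta targets, -0.18 for components and 0.0015 for all genes. The median of all 18 tested targets was -0.024. Leaving out single libraries moved the median of components between -0.27 and -0.039, and that of all targets between -0.058 and 0.065. Without mock replicate 2 and MYBup replicate 1, 8 members rose and 13 fell. With wt as the reference the classes moved otherwise. Of 11 YAP targets 0 were called higher and 5 lower, and 10 had a negative log2 fold change. Of 7 TGF-beta targets 3 were called higher and 1 lower there, against 19.4% and 18.7% of all genes tested.

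Tgfb2 (ENSMUSG00000039239, chromosome 1, 186622792 to 186705989) had 6.11, 7.17 and 7.20 CPM in MYBup and 1.80, 3.49 and 2.29 CPM in mock libraries (log2 fold change 1.47, SE 0.31, adjusted p = 0.0036), with no overlap between the groups, as in 40.6% of all tested genes. The other ligand genes did not pass. Tgfb1 and Tgfb3 had 39.5 ± 7.23 and 47.1 ± 1.92 CPM in MYBup and 35.9 ± 6.84 and 48.6 ± 4.37 CPM in mock cells (SD, n = 3).
Inhba varied widely within groups, with 5.87, 17.4 and 16.3 CPM in MYBup and 32.0, 13.1 and 29.7 CPM in mock libraries (-0.91, adjusted p = 0.0634). MYBup replicate 1 and mock replicate 2 were its lowest libraries. Bmp1 stood at 376, 369.5 and 373 CPM in MYBup and 242, 227 and 261 CPM in mock libraries (log2 fold change 0.62, SE 0.082, adjusted p = 0.00015), and all MYBup libraries were far above the rest of the series.

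Tgfbr2 (ENSMUSG00000032440, chromosome 9, 116084293 to 116175360) fell from 357, 320.3 and 313 CPM in mock to 181, 202 and 199 CPM in MYBup libraries (log2 fold change -0.77, SE 0.075, adjusted p = 1.54e-05). The groups did not overlap, and Tgfbr2 was the only receptor gene of 6 called. The log2 fold changes of the others, Tgfbr1, Tgfbr3, Bmpr1a, Bmpr2 and Acvr1, ranged from -0.29 to 0.20.
Smad3 (ENSMUSG00000032402, chromosome 9, 63646767 to 63757994), whose product carries the signal of that receptor to the nucleus, fell from 268, 241 and 246 to 159, 169 and 166 CPM (log2 fold change -0.62, SE 0.069, adjusted p = 4.18e-05), and the groups did not overlap. Mock was the highest of the 4 groups in both genes. Smurf1, a ubiquitin ligase gene, fell by 0.29 on the log2 scale.

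Of the TGF-beta feedback inhibitors, Smad6 (ENSMUSG00000036867, chromosome 9, 63953076 to 64022059), which mainly restrains signalling by bone morphogenetic proteins, rose from 2.28, 2.21 and 3.27 to 4.40, 5.25 and 5.92 CPM (log2 fold change 1.02, SE 0.24, adjusted p = 0.00702). Pmepa1 (ENSMUSG00000038400, chromosome 2, 173224458 to 173276533), a membrane protein that sequesters receptor-activated SMADs, fell from 126, 124 and 117 to 82.6, 80.8 and 79.6 CPM (log2 fold change -0.60, SE 0.12, adjusted p = 0.0031). These 2 inhibitors thus moved in opposite directions, each without overlap. Tgif1, a corepressor gene, had a log2 fold change of -0.39, while Smad7 and Skil did not pass.
Tgfbi (ENSMUSG00000035493, chromosome 13, 56609523 to 56639562) had 1.14, 0.961 and 1.07 CPM in MYBup and 1.76, 2.28 and 1.96 CPM in mock libraries, a small count in every library (log2 fold change -0.91, SE 0.32, adjusted p = 0.0495). Ltbp2 fell by 0.36 on the log2 scale. Both matrix targets were therefore lower in MYBup than in mock, and both were called higher in MYBup than in wt (log2 fold changes of 1.01 and 0.85). The call of Tgfbi against wt ended without any 1 of the 6 libraries, with DESeq2 and without the low-count filter (adjusted p up to 0.121).

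Axl (ENSMUSG00000002602, chromosome 7, 25757273 to 25788705), the highest YAP target per length in mock, MYBup and wt cells, fell from 1748, 1533 and 1625 to 1064, 1082 and 1086 CPM (log2 fold change -0.60, SE 0.073, adjusted p = 7.86e-05). All MYBup libraries were also below the wt libraries (1421, 1409 and 1325 CPM). MYBup and wt libraries did not overlap in 55.6% of all tested genes. Ajuba (ENSMUSG00000022178, chromosome 14, 54567472 to 54577558), whose product restrains the LATS kinases, rose from 68.0, 69.9 and 77.7 to 101, 119 and 109 CPM (log2 fold change 0.61, SE 0.091, adjusted p = 0.000342). Its MYBup level overlapped that of wt libraries, 108, 98.1 and 116 CPM. Ccn1 rose by 0.41, Crim1 (a transmembrane binder of growth factors) by 0.47 and the Hippo kinase gene Lats2 by 0.41, while Ccn2, Edn1 and F3 had -0.06, -0.13 and 0.26 and did not pass.
Yap1 fell from 302, 287 and 296 to 229, 236 and 235 CPM (log2 fold change -0.33, SE 0.06, adjusted p = 0.00126), and Tead2 from 69.5, 73.6 and 71.9 to 55.6, 46.7 and 51.9 CPM (log2 fold change -0.48, SE 0.11, adjusted p = 0.00627). Wwtr1, Tead1, Tead3 and Tead4 did not pass. Within this list the YAP gene was lower than in mock while 4 of 11 YAP targets were higher. Those 4, Ajuba, Crim1, Ccn1 and Lats2, were called lower in mock than in wt.

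Some of these calls rested on single libraries. Those of Crim1 and Lats2 ended without mock replicate 1, mock replicate 2, MYBup replicate 2 or MYBup replicate 3 (adjusted p up to 0.114 and 0.153). That of Tgfbi ended without any 1 of the 6 libraries, with DESeq2, with limma voom and without the low-count filter (up to 0.139). Those of Ltbp2 and Smurf1 ended without mock replicate 1 or MYBup replicate 1 (adjusted p up to 0.0821 and 0.0686). Those of Yap1 and Tgif1 did not rest on 1 library but ended with the replicate block (adjusted p = 0.0656 and 0.0563). Ccn1, Axl, Ajuba, Smad6, Pmepa1, Tgfb2, Bmp1, Tgfbr2, Smad3 and Tead2 were called in each of 14 alternative settings.

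**Figure D2:**
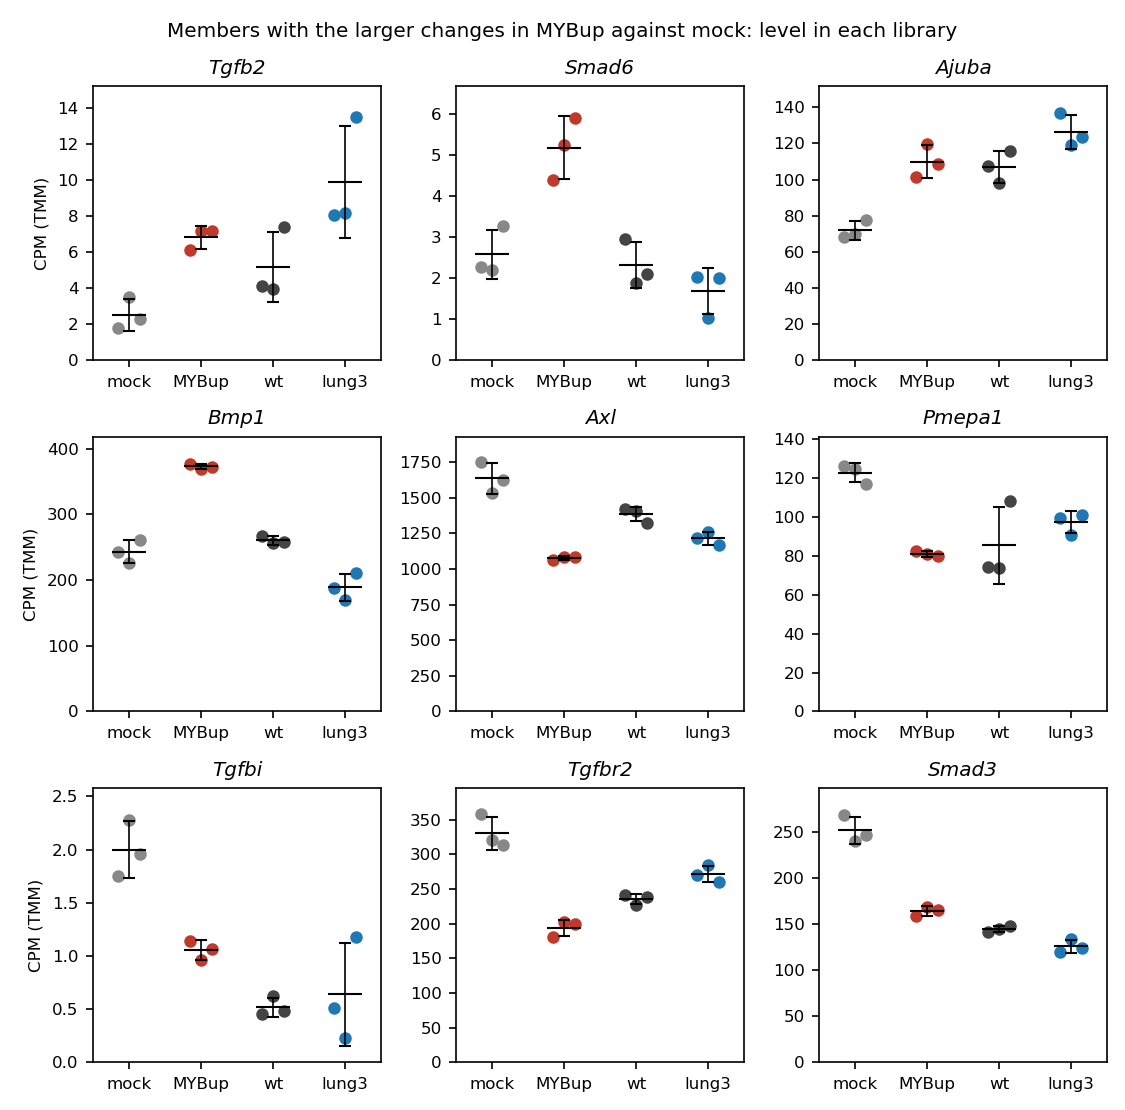
Level of the 9 members with a called change of at least 0.5 on the log2 scale in MYBup against mock, in CPM with TMM scaling on linear axes that start at 0; points are the 3 libraries of each group, and lines give the mean and SD. Mock was the highest group for Axl, Pmepa1, Tgfbi, Tgfbr2 and Smad3, and the lowest for Tgfb2 and Ajuba.

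The comparison of mock with wt cells asked whether the plasmid reference itself differs from untransfected cells. It shares the mock libraries with the comparison above and the wt libraries with that of lung3, so the values are only set side by side. Among the members, mock cells had lower levels of several YAP targets than wt cells, and the TGF-beta targets called were higher. Of 11 YAP targets 6 fell and 1 rose, and of 7 TGF-beta targets 0 fell and 3 rose; of all genes tested 35.9% were called, 18.0% higher and 17.9% lower. DESeq2 and limma voom also called 0 of these TGF-beta targets lower, and 0 had an unadjusted p under 0.05 in that direction. Edn1, which fell, is listed for both pathways but was counted with the YAP targets. The log2 fold change was -1.65 (SE 0.14, adjusted p = 5.16e-06) in F3, in Edn1 -1.64 (SE 0.36, adjusted p = 0.00334) and in Ccn1 -1.07 (SE 0.081, adjusted p = 1.99e-06). Lats2 (-0.66), Ajuba (-0.58) and Crim1 (-0.48) were the other YAP targets that fell, and Axl rose by 0.24. Of the TGF-beta targets, Tgfbi rose by 1.91, Ltbp2 by 1.21 and Pmepa1 by 0.52. The lists of other targets, described further below, did not show this contrast between the pathways. In mock against wt, 3 of 13 tested other TGF-beta and BMP targets rose and 2 fell. Of 14 tested other YAP targets, 3 rose and 3 fell.

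Of 21 components 7 rose and 3 fell in mock against wt. Smad3 rose by 0.80 on the log2 scale, Tgfb3 by 0.86, Tgfbr2 by 0.49, Tead2 by 0.49, Tgfbr1 by 0.44, Yap1 by 0.33 and Smurf1 by 0.25. Tgfb2 (-1.06), Tead4 (-0.45) and Bmpr1a (-0.36) fell. Without mock replicate 2 and MYBup replicate 1, 13 members rose and 8 fell, in place of 11 and 9. Yap1 was higher in the line in which Ccn1, F3 and Edn1 were lower, and the receptor genes Tgfbr1 and Tgfbr2, Smad3 and the targets Tgfbi, Ltbp2 and Pmepa1 were all higher there. The calls of Axl and Smurf1 ended without mock replicate 1, those of Tgfb2 without mock replicate 1 or wt replicate 3 and that of Bmpr1a without mock replicate 2, wt replicate 1 or wt replicate 2. That of Axl also ended without wt replicate 3, that of Smurf1 without mock replicate 3, wt replicate 1 or wt replicate 2, and that of Crim1 without any of mock replicates 1 and 2 and wt replicates 1 to 3 (adjusted p up to 0.101 over these 5 genes).

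Against wt instead of mock, MYBup cells had 8 members higher and 9 lower, where 19.4% and 18.7% of all genes tested were (38.2% in all). The number higher was 5 without wt replicate 1, wt replicate 2, MYBup replicate 2 or MYBup replicate 3. Without mock replicate 2 and MYBup replicate 1, it was 9, with 10 lower. The changes called against mock were not all found against wt. Smad6 (log2 fold change 1.17, SE 0.24, adjusted p = 0.00193) and Bmp1 (log2 fold change 0.52, SE 0.082, adjusted p = 0.000357) were higher than in both reference groups, and Axl (log2 fold change -0.36, SE 0.073, adjusted p = 0.00199) and Tgfbr2 (log2 fold change -0.28, SE 0.075, adjusted p = 0.0105) lower than in both, although the call of Tgfbr2 ended without MYBup replicate 1 (adjusted p = 0.0524). Ajuba, Pmepa1, Tgfb2, Yap1 and Tead2 had log2 fold changes of 0.036, -0.074, 0.41, -0.0087 and 0.0088 and did not pass. Smad3 (0.19) and Ccn1 (-0.66) had the opposite sign to that against mock, and the call of Smad3 ended without any 1 of the 6 libraries (adjusted p up to 0.144).
F3 (-1.40) and Edn1 (-1.77) were lower in MYBup than in wt cells too. Tgfb3 (0.81), Tead4 (-0.57), Tead1 (-0.80), Ski (0.49), Wwtr1 (0.30), Ankrd1 (-0.32) and Tgif1 (-0.23) were also called. Of these, the calls of Wwtr1, Ankrd1 and Tgif1 ended without MYBup replicate 2, MYBup replicate 3 or wt replicate 3, those of Wwtr1 and Tgif1 also without wt replicate 1 and that of Wwtr1 without wt replicate 2 (adjusted p up to 0.146).

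**Figure D3:**
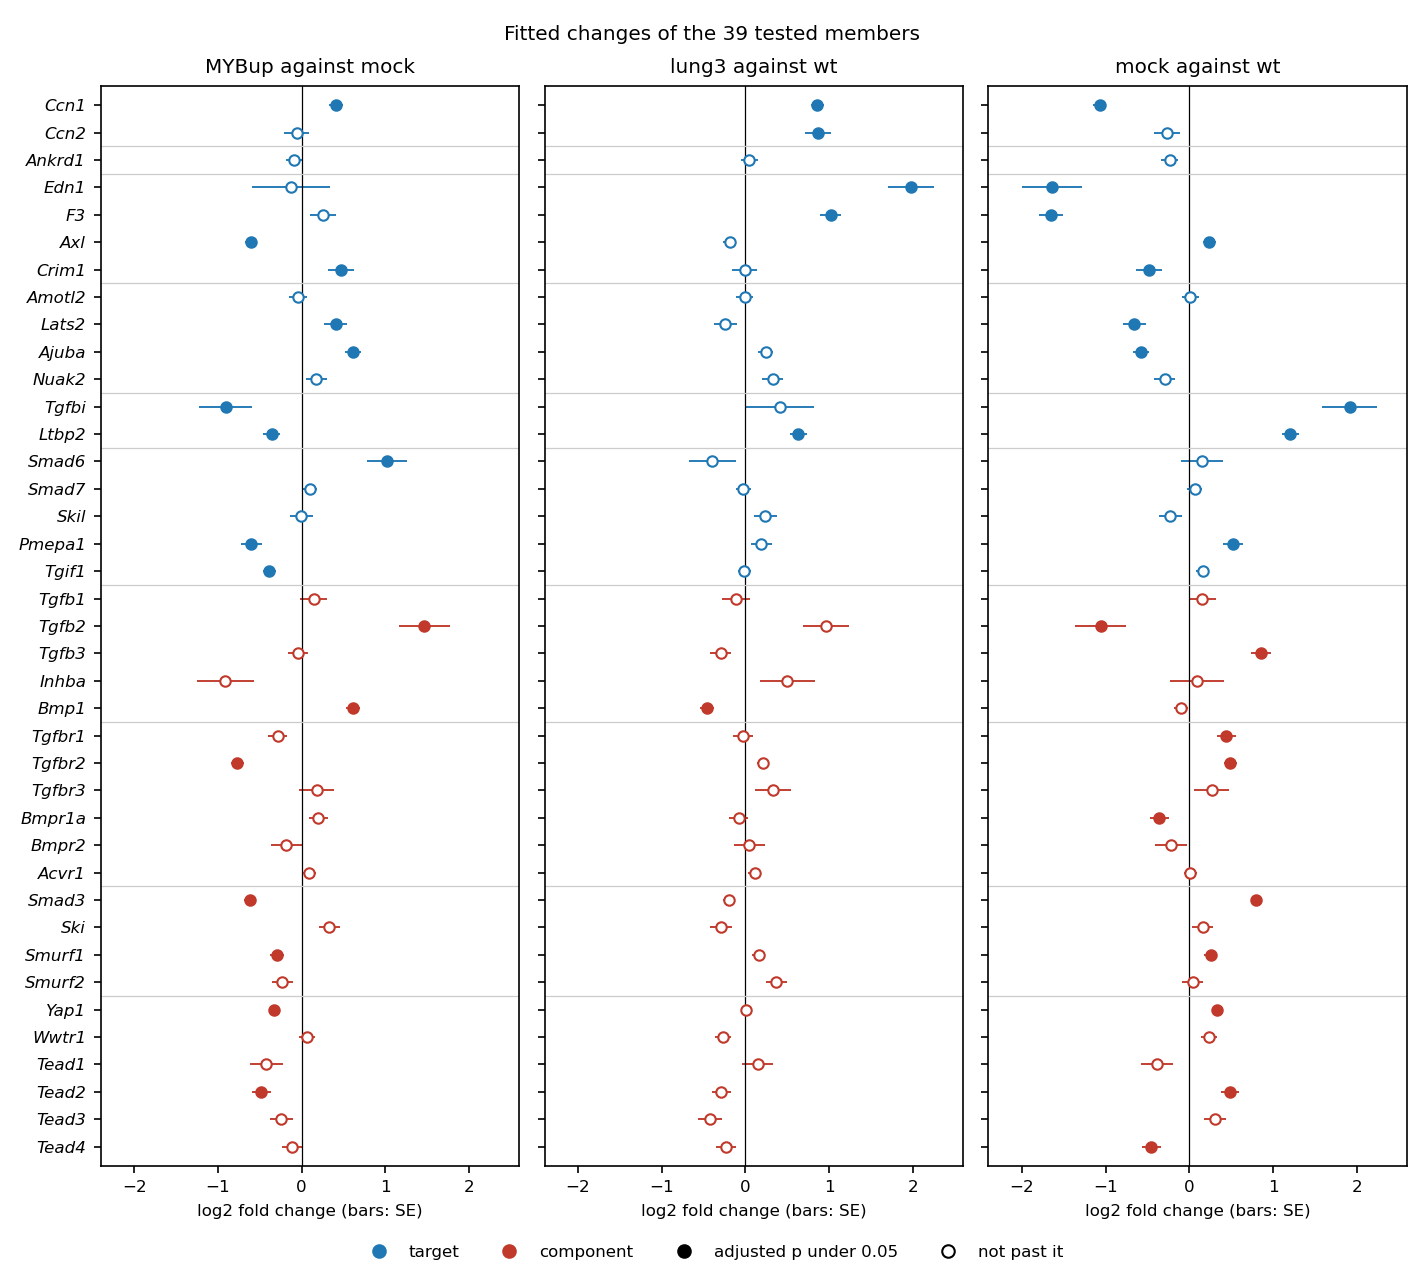
Fitted log2 fold changes with SE (horizontal axes) of the 39 tested members in 3 comparisons, ordered by role and separated by grey lines; blue marks targets, red components, and filled points an adjusted p under 0.05. The filled points in lung3 against wt are 5 targets to the right of 0 and 1 component, Bmp1, to the left. The fit shown has no replicate block.

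The series was designed to find genes that move in opposite directions in MYBup against mock and lung3 against wt, which share no library. Ltbp2 (fell, then rose) and Bmp1 (rose, then fell) were called in opposite directions, 2 of 39 tested members, against 1.44% of all genes tested. The fall of Ltbp2 was not called without mock replicate 1, without MYBup replicate 1 or with the replicate block (adjusted p up to 0.0949). Against wt, Ltbp2 was higher in MYBup cells (0.85), the same direction as in lung3. Ccn1 was called higher in both. The difference between the 2 log2 fold changes, tested in the same fit, was past the threshold for 17 members (8 of them YAP or TGF-beta targets with the more negative change in MYBup), against 19.9% of all genes (10.4% more positive and 9.52% more negative). Of the members 4 were more positive and 13 more negative. Without mock replicate 2 and MYBup replicate 1, 20 members passed. For Edn1 the difference was -2.11 (SE 0.54, adjusted p = 0.0156), for Tgfbr2 -0.97 (SE 0.11, adjusted p = 7.34e-05), for Ccn2 -0.93 (SE 0.22, adjusted p = 0.00954) and for Bmp1 1.07 (SE 0.12, adjusted p = 7.34e-05). Edn1 and Ccn2 were called in lung3 against wt and not in MYBup against mock. The call of Edn1 for the difference ended without mock replicate 1 or MYBup replicate 3 (adjusted p up to 0.053).

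**Figure D4:**
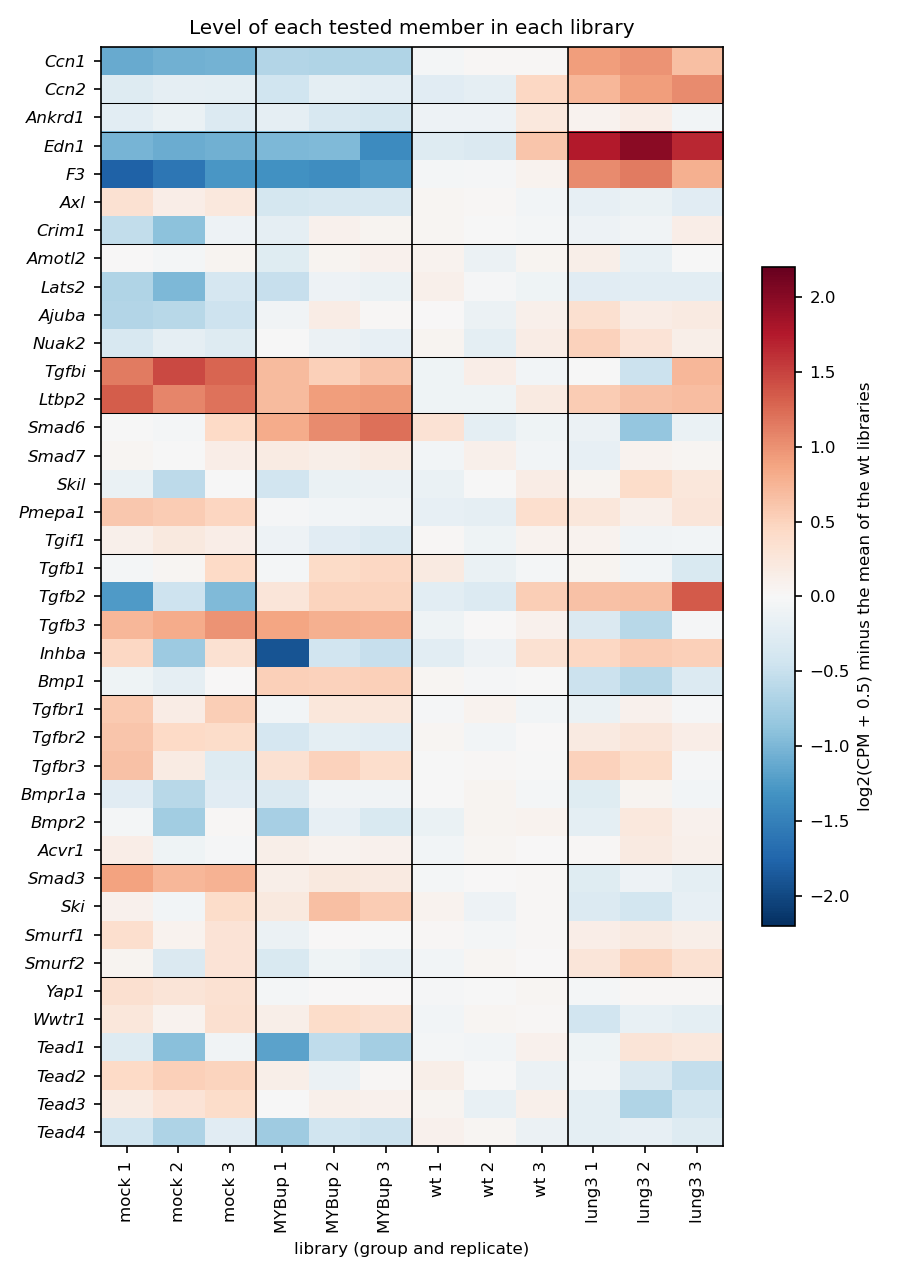
Level of the 39 tested members (rows, by role) in the 12 libraries (columns), as log2(CPM + 0.5) minus the mean of the 3 wt libraries; red is higher and blue lower than wt. Ccn1, Edn1 and F3 were below wt in all mock and MYBup libraries and above it in all lung3 libraries, and Inhba was lowest in MYBup replicate 1.

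Levels of different genes were compared per kilobase of annotated exon. In wt cells, TAZ (Wwtr1) was at 54.0 ± 1.86 CPM per kilobase and Yap1 at 25.4 ± 0.532 (SD, n = 3). Among the TEAD genes the order in wt was Tead1 (17.9 ± 1.11), Tead2 (10.7 ± 0.938), Tead4 (9.35 ± 0.723) and Tead3 (1.27 ± 0.132), in which Tead2 and Tead4 overlapped within their SD. In MYBup cells Tead1 (10.2 ± 2.19) and Tead2 (10.7 ± 0.927) overlapped within their SD. Tead1 was called lower in MYBup than in wt cells. In mock against wt it had -0.38 (adjusted p = 0.133) and was not called, although the groups did not overlap. With the replicate block it was called lower there (-0.42, adjusted p = 0.0489). MYBup and mock cells did not differ past the threshold (-0.42, adjusted p = 0.123).
Of the ligands, Tgfb3 (7.94 ± 0.523) and Tgfb1 (6.40 ± 0.786) led in wt, followed by Inhba (3.70 ± 0.827) and Tgfb2 (0.894 ± 0.338). In mock and MYBup cells Tgfb3 was higher, at 14.4 ± 1.29 and 13.9 ± 0.568, and Tgfb1 was 7.12 ± 1.36 and 7.84 ± 1.43. Bmp4, a bone morphogenetic protein gene, had 0 counts in all 12 libraries; with a floor of 3 counts this allows at most 0.0444 CPM over the wt group and 0.0800 CPM over the lung3 group. Bambi, a decoy receptor gene, had 1, 2, 0 and 1 counts over the mock, MYBup, wt and lung3 groups. Such floors account for counting error alone, because reads that carry no molecular identifier are not independent molecules.
Among receptors, Bmpr1a (30.8 ± 1.11) and Tgfbr2 (28.7 ± 0.915) were highest in wt, and Tgfbr3, a coreceptor gene that helps present TGF-beta 2, was lowest (0.906 ± 0.0135). In mock cells Tgfbr2 (40.3 ± 2.91) led instead, with Bmpr1a at 24.1 ± 3.41. Among YAP targets in wt, Axl (275 ± 10.4) and Ccn1 (155 ± 4.40) were the highest and Edn1 (0.882 ± 0.440) the lowest.

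**Figure D5:**
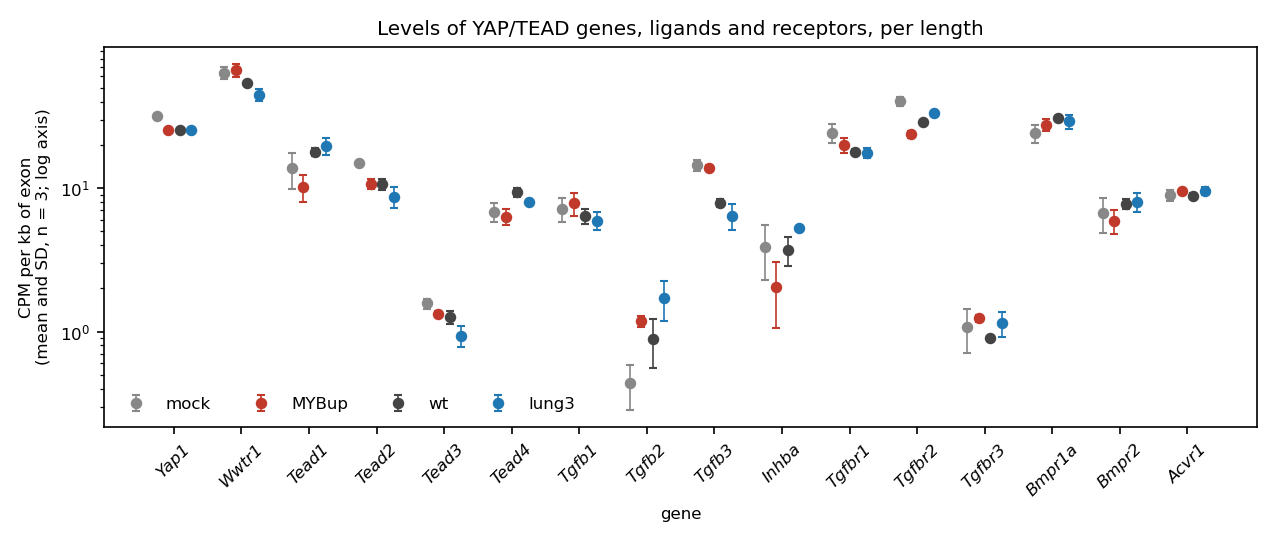
Levels of the YAP, TAZ and TEAD genes, the 4 ligand genes with counts and the 6 receptor genes, as CPM per kilobase of annotated exon on a log axis; points are group means and bars SD over 3 libraries. Wwtr1 was the highest of the genes shown in every group, and Tgfb2 in mock the lowest value.

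The wider pathway was described with 4 lists of 94 other genes. Of 23 tested TGF-beta and BMP components, 4 rose and 4 fell in MYBup against mock, and 1 rose and 2 fell in lung3 against wt. For all 4 lists the shares among all genes tested are 14.3% higher and 12.6% lower in MYBup against mock and 2.91% and 2.44% in lung3 against wt. Inhbb, the beta B subunit of activins, had 0.269 ± 0.0257 against 2.38 ± 0.797 CPM (log2 fold change -3.11, adjusted p = 9.61e-05), whereas Fstl3, an activin-binding protein gene (1.42), and Bmp7 (1.25) rose. Itgb6, whose integrin activates latent TGF-beta, rose in both comparisons (1.20 and 1.25), but its calls ended without MYBup replicate 2 in the first and without wt replicate 1 or 2 in the second (adjusted p up to 0.0641). The latent TGF-beta binding protein genes Ltbp3 and Ltbp4 had -0.78 and -0.81 in lung3, where their relative Ltbp2 rose. The call of Ltbp4 ended without wt replicate 1 or 2 or lung3 replicate 2 or 3 (adjusted p up to 0.142).

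Of 13 other TGF-beta and BMP targets, 4 rose and 3 fell in MYBup, and 3 rose and 0 fell in lung3 (2 lower at an unadjusted p under 0.05, 0 by DESeq2 and 0 by limma voom). Lif, a cytokine gene, fell in MYBup (-1.17) and rose in lung3 (0.65), and Pdgfb, a growth factor gene, rose in lung3 (0.88). Both lung3 calls ended without wt replicate 1 or 2, that of Lif also without lung3 replicate 2 and that of Pdgfb without lung3 replicate 1 or 3 (adjusted p up to 0.073). In MYBup, Id3, a BMP target, had 99.4 ± 18.5 against 54.8 ± 16.5 CPM (0.86, adjusted p = 0.00385). Id1 (0.90) also rose, and Il11 fell by 1.35. The call of Id1 ended without mock replicate 1 or 2 or MYBup replicate 2 or 3, and that of Il11 without mock replicate 3 or MYBup replicate 1 (adjusted p up to 0.144).

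Of 22 other Hippo components, 1 rose and 3 fell in MYBup, and 1 rose in lung3. Wwc1, whose product activates the Hippo kinases, had -0.45 (adjusted p = 0.00298), and Limd1 (-0.32) and Sav1 (-0.22) also fell. Dlg5 rose by 0.40. The calls of Dlg5 and Sav1 ended without MYBup replicate 3, that of Dlg5 also without MYBup replicate 2 and that of Sav1 without MYBup replicate 1 (adjusted p up to 0.0877). Vgll3, a cofactor of TEAD factors, was the gene that rose in lung3, with 7.96 ± 2.61 against 2.13 ± 1.53 CPM (1.89, adjusted p = 0.0155), and this call ended without wt replicate 1, wt replicate 2 or lung3 replicate 2 (up to 0.0759). Of 14 other YAP targets, 0 passed in MYBup (4 at an unadjusted p under 0.05, 0 by DESeq2 and 0 by limma voom), and in lung3 only the transglutaminase gene Tgm2 rose (76.5 ± 25.2 against 29.4 ± 13.3 CPM, log2 fold change 1.39), a call that ended without wt replicate 1 or 2 (up to 0.0575). These lists were read as counts, with no test of the lists themselves.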

How the data were processed

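Counts were read from 1 deposited table of raw counts per gene, made by the authors from 12 RNA-seq libraries. STAR, edgeR and the build GRCm38 are named in the submitters' processing notes; for versions, counting tool, annotation and strand setting the sources used here give nothing. The deposited table keeps 4 significant digits in its 2708 larger values. Totals of 8912989 to 24745660 counts set the precision.

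Tests used edgeR 4.0.16 in R 4.3.3 (quasi-likelihood F test, TMM factors, filterByExpr with a minimum count of 10, 1 fit of all 12 libraries with a term per group), with p-values adjusted by Benjamini-Hochberg over 11291 genes and a threshold of 0.05. SE was derived as the size of the log2 fold change over the root of F. The script was tested on simulated data. Alternatives were RLE factors, no filter, DESeq2 1.42.0, limma 3.58.1 voom, fits on the 6 libraries compared, a replicate block and leaving out libraries. Pairs of libraries within a group differed by a chi-square per gene of 2.24 to 36.1, and none was counted as 1 sample. The lowest value was that of MYBup replicates 2 and 3, and the next lowest was 6.33 (wt replicates 1 and 2). MYBup replicate 1 differed from replicates 2 and 3 by 15.6 and 14.2. Whether MYBup replicates 2 and 3 are separate cultures was not tested. If they are not, the spread of the MYBup group is understated. Gene coordinates and exon lengths are GENCODE M21 on GRCm38, 1-based.

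Pairing by replicate number was examined through the correlation of deviations from group means. Libraries of equal number in lung3 and wt correlated at 0.329, 0.294 and 0.309, and every unlike pair was below 0. Deviations within a group sum to 0, so values below 0 in unlike pairs follow in part from those above 0 in like pairs. The numbers were taken to pair these libraries, although the labels state no shared culture or day.

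The members and lists were chosen with earlier results of these data known. Members called with a change of at least 0.5 in a main comparison are given per library, up to 4 per role, and up to 4 called genes of each other list are named, those with the largest change. Of the genes so named, 1 is not reported here.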

Additional observations from a re-analysis of the deposited data

Results flagged for a closer look

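The change in MYBup against mock differed from that in lung3 against wt for 17 members by edgeR's test of the difference itself, against 19.9% of all genes tested. Each value below is the first log2 fold change minus the second. Among YAP targets it was -0.45 for Ccn1, -0.93 for Ccn2, -2.11 for Edn1, -0.76 for F3, -0.41 for Axl and 0.65 for Lats2. Among TGF-beta targets it was -0.99 for Ltbp2, 1.41 for Smad6, -0.79 for Pmepa1 and -0.37 for Tgif1. Among components it was 1.07 for Bmp1, -0.97 for Tgfbr2, -0.42 for Smad3, 0.63 for Ski, -0.46 for Smurf1, -0.60 for Smurf2 and -0.34 for Yap1. Of these, 12 passed in each of 19 alternative settings. Edn1, Lats2, Tgif1, Ski and Smurf2 did not pass without 1 or more single libraries, with adjusted p up to 0.053, 0.0868, 0.0915, 0.0764 and 0.0737. No member was checked for a library far from its group, since groups of 3 are too small for that.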

How the results depend on the processing

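With the replicate block on the 6 libraries compared, the members called lower in MYBup against mock numbered 5 in place of 10 (6.21% in place of 12.6% of all genes tested), and those called in lung3 against wt 11 higher and 8 lower in place of 5 and 1. In MYBup and mock the same-number correlations were -0.191, -0.496 and 0.382, so the numbers do not pair those libraries. Some unlike pairs were higher, MYBup replicate 1 with mock replicate 2 at 0.636 and MYBup replicate 2 with mock replicate 3 at 0.406. What these libraries share was not tested. Leaving out each library in turn gave 5 to 8 higher and 7 to 13 lower for MYBup against mock, 5 to 7 higher and 1 to 2 lower for lung3 against wt, 9 to 12 higher and 7 to 10 lower for mock against wt, 5 to 7 higher and 7 to 9 lower for MYBup against wt and 12 to 19 members with a difference between the comparisons. Without mock replicate 3 and lung3 replicate 3 together, a setting chosen after the data were seen, 2 members were lower in lung3 against wt. These values changed sign, none of them called: Ccn2 in MYBup against mock to 0.0015 without MYBup replicate 1 and 0.019 also without mock replicate 2, Edn1 there to 0.15 without MYBup replicate 3, Tgfbi in lung3 against wt to -0.38 without lung3 replicate 3 and -0.38 also without mock replicate 3, Smad6 in mock against wt to -0.045 without mock replicate 3 and -0.045 also without lung3 replicate 3, Tgfbr3 there to -0.043 without mock replicate 1, Ajuba in MYBup against wt to -0.028 without MYBup replicate 2 and -0.021 without wt replicate 2, and Pmepa1 there to 0.14 without wt replicate 3. Over single libraries left out, the other end of these ranges was -0.10 for Ccn2, -0.28 for Edn1, 0.70 for Tgfbi, 0.36 for Smad6, 0.48 for Tgfbr3, 0.097 for Ajuba and -0.17 for Pmepa1. The cause was not tested. RLE factors, DESeq2 and limma voom kept the median of all genes within 0.01 of 0. Genes of low counts, such as Edn1 and Tgfbi, are limited by depth.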
